A study of Mus musculus with 4 samples.

Results

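The genes described here are 8 sensors and relays of foreign or misplaced RNA: Ddx58 (RIG-I), Ifih1 (MDA5), Dhx58 (LGP2), Mavs, Tlr3, Eif2ak2 (PKR), Adar (ADAR1) and Zbp1. They were taken from the deposited table by symbol, each matched 1 row, and they make up 8 of its 36445 genes. The samples were MC38 cells, a mouse colon cancer line, grown for 24 h with the pyrimidine analogue 5-fluorouracil (5-FU) at 1 mM, or with PBS as the control. Each group held 2 libraries of polyadenylated RNA. The labels name no other agent or genotype, and all samples come from this single line.

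Cells detect RNA that should not be in the cytosol or in endosomes through receptors of different build. RIG-I and MDA5 are helicases that bind double-stranded RNA and pass the signal to MAVS on the mitochondrial surface, LGP2 is a related helicase without the signalling domains, and TLR3 reads double-stranded RNA in endosomes. PKR stops translation by phosphorylating eIF2alpha, ADAR1 edits adenosine in double-stranded RNA so that self RNA is tolerated, and ZBP1 binds left-handed nucleic acids and can start cell death. Most of these genes are induced by interferon.

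The start regions of 4 of the 8 genes are shown because they carry letters like those of an interferon-stimulated response element (ISRE), in Adar only in a shorter form. Of these 4 genes, Ddx58 rose and Ifih1 fell after 5-FU in the test described below. Eif2ak2 and Adar did not pass it (limma adjusted p = 0.0702 and 0.1915). Whether the letters go with a direction was not tested. Sequences are from RefSeq on GRCm38.p6, 5′ to 3′ on the strand of the gene, with 250 bases before the transcription start and 50 bases from it, and capitals mark the ISRE-like letters.
Ddx58, chr4:40239776-40240075, minus strand: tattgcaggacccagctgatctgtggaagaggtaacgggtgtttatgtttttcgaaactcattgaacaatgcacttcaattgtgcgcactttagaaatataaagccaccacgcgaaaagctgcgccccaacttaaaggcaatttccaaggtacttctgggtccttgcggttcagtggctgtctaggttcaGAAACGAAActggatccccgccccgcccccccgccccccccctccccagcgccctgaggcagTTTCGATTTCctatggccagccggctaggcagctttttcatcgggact
Ifih1, chr2:62646206-62646505, minus strand: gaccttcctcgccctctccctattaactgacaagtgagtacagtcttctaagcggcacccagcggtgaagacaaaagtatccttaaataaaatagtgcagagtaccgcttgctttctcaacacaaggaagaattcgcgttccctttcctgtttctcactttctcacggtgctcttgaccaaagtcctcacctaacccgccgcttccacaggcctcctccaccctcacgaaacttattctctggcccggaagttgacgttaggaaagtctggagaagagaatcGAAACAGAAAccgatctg
Eif2ak2, chr17:78882523-78882822, minus strand: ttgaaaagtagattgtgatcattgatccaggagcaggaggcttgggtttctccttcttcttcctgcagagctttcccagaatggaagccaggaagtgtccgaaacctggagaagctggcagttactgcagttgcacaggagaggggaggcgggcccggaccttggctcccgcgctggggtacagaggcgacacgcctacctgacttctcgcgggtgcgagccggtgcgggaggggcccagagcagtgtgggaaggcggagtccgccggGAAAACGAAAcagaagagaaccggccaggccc
Adar, chr3:89730468-89730767, plus strand: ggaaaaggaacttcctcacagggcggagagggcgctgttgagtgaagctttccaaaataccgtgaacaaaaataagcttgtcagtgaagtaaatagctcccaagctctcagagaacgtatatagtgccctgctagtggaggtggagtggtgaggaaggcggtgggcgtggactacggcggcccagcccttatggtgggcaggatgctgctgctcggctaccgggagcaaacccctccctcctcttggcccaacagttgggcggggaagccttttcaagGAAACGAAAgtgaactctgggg

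RefSeq windows were present for 6 of the 8 genes, 8 windows in all with 3 for Adar, and none was read for Dhx58 and Zbp1. Each window was searched on both strands for a pair of GAAA with any 2 bases between them, held by 3.44% of all 32851 windows, and for the same pair with any 1 base between them, held by 3.17%. The shorter motif was added after these sequences had been read. At least 1 of both motifs was present in 6.27% of all windows and in windows of Ddx58, Ifih1, Eif2ak2 and Adar. In Ddx58 the shorter motif began at position -60 from the start site and the longer one lay on the opposite strand from position 3. The longer motif began at positions 33 and 19 in Ifih1 and Eif2ak2. In the third Adar window the match was to the shorter motif alone and began at position 29. Neither motif was found in the Mavs and Tlr3 windows or in the first and second Adar windows. Of the 8 windows of these genes, 3 held the longer motif and 2 the shorter. A further pattern, TTC and GAA with any 3 bases between them, was held by 2 of the 8 windows and by 8.3% of all windows. These matches describe sequence and do not show that a factor was bound.

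Values are FPKM, read fragments per kilobase of transcript and per unit of library size. Depth, estimated from the steps of the FPKM values, was 20830000 and 20620000 reads in 5-FU replicates 1 and 2, against 41340000 and 41620000 reads in PBS replicates 1 and 2. The spread was wider between the PBS replicates, with a median absolute log2 difference per gene of 0.0729 between the 5-FU libraries and 0.271 between the PBS libraries. The 9 colon epithelial markers, Epcam, Cdh1 and Krt8 among them, lay below 1 FPKM in all 4 libraries. The defining epithelial transcripts of the labelled cell type were thus low or absent, and none was high enough to test. The highest values were 0.806 FPKM for Vil1 in 5-FU replicate 2 and 0.823 FPKM for Krt20 in PBS replicate 2. Of 10 leukocyte markers, Cd3e and Ncr1 were at 0 in all 4 libraries, Ptprc reached at most 0.03425 FPKM and 8 stayed under 1 FPKM. The 10 markers summed to 20.5 and 18.8 FPKM in 5-FU and to 7.89 and 22.5 FPKM in PBS, nearly all from Cd68 and Lyz2, neither of which passed the test described below. Sums over 6 fibroblast markers were 18.1 and 17.6 FPKM in 5-FU and 24.4 and 34.5 FPKM in PBS, and over 4 endothelial markers 0.348 and 0.427 FPKM in 5-FU and 0.117 and 0.209 FPKM in PBS. Of 3 tested fibroblast markers, Pdgfra fell (log2 difference -1.255, limma adjusted p = 0.0204) and 2 did not pass. These were Col1a1 (log2 difference 0.108, limma adjusted p = 0.609) and Col3a1 (log2 difference -0.278, limma adjusted p = 0.106). The part of these differences in the results was not tested, and fewer cells of a type cannot be told apart from less RNA per cell in such bulk samples.

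All 8 genes passed the filter on low values, which asks for 1 FPKM or more in 2 or more libraries. Groups were compared with limma across all 11644 genes that passed it, on log2(FPKM + 1), with Benjamini-Hochberg adjusted p under 0.05 as the threshold. Of the 8 genes, 1 rose after 5-FU (Ddx58), 2 fell (Ifih1 and Mavs) and 5 did not pass. Over all tested genes, 22.1% rose, 31.2% fell and 53.3% passed in either direction, against 3 of the 8 genes. In all 8 genes the groups did not overlap, with 5-FU above PBS in 4 and below in 4, which also holds for 81.0% of all tested genes (35.9% above and 45.1% below). The median log2 difference was 0.017 over the 8 genes and -0.097 over all tested genes.

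**Figure D1:**
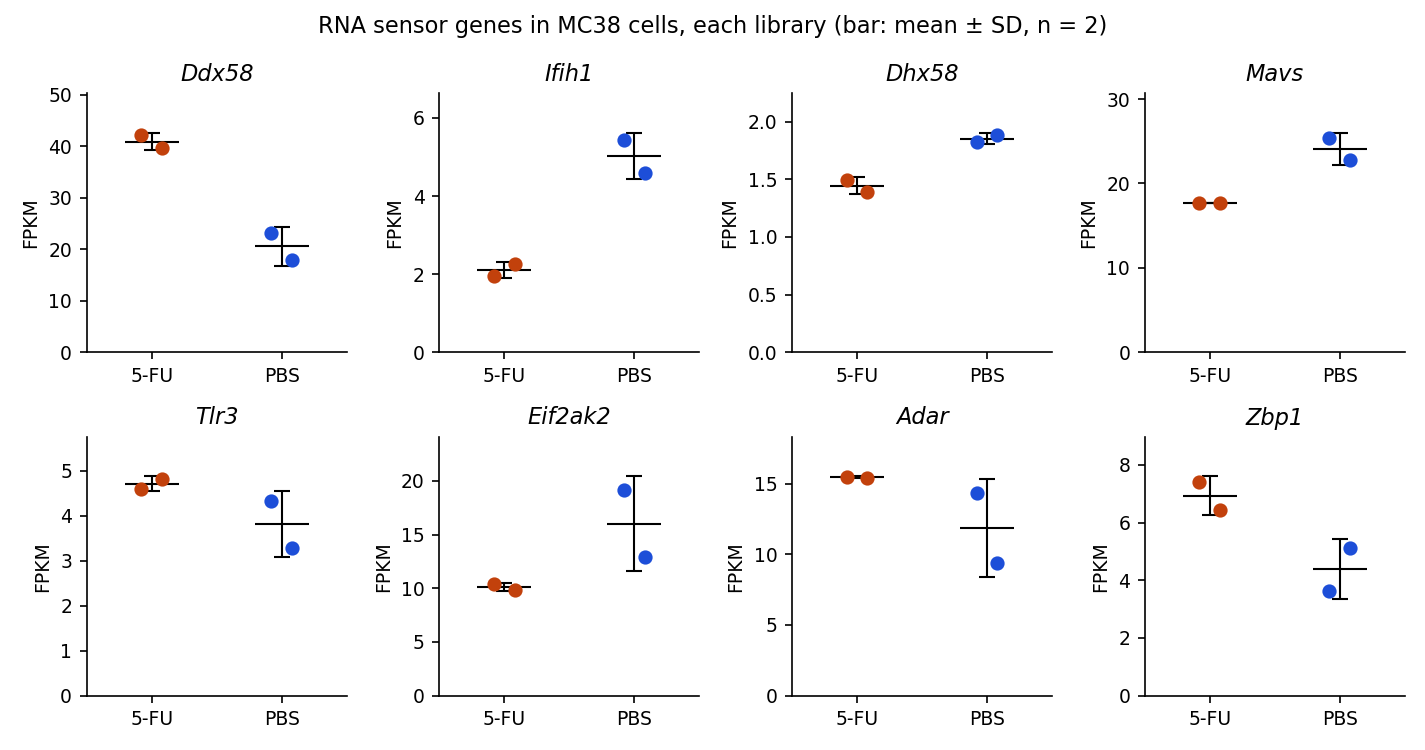
FPKM of each gene in each library, with 5-FU at the left and PBS at the right of each panel; points are libraries and bars the mean ± SD (n = 2 per group). The 5-FU points lie closer together than the PBS points in every panel except that of Dhx58, and the PBS points of Adar and Eif2ak2 lie farthest apart in proportion.

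Ddx58 encodes RIG-I, the helicase that recognises short RNA with a 5′ triphosphate end. The gene lies at chr4:40203773-40239828, minus strand (GRCm38, GENCODE M21). It measured 42.05 and 39.7 FPKM in 5-FU replicates 1 and 2, against 23.2 and 17.9 FPKM in PBS replicates 1 and 2. Both 5-FU libraries were higher than both PBS libraries, by more than the spread within either group. The means were 40.9 ± 1.68 FPKM in 5-FU and 20.5 ± 3.755 FPKM in PBS (SD, n = 2 each), a ratio of 1.99, and the log2 difference was 0.97 ± 0.158 (SE, limma adjusted p = 0.00895). Of all tested genes, 90.7% had a smaller difference. Ddx58 was the most abundant of the 8 genes in 5-FU, where 85.5% of all tested genes had a lower mean, against 72.1% in PBS.

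Ifih1 encodes MDA5, the helicase that assembles along long double-stranded RNA. Its gene is at chr2:62595798-62646255, minus strand. It measured 1.95 and 2.26 FPKM in 5-FU replicates 1 and 2, against 5.442 and 4.600 FPKM in PBS replicates 1 and 2. The groups did not overlap, and 5-FU was the lower one. The mean of 2.105 ± 0.215 FPKM in 5-FU was 0.419 times the mean of 5.02 ± 0.596 FPKM in PBS. The log2 difference was -0.95 ± 0.15 (SE, limma adjusted p = 0.00829). These values rest on 332 and 380 reads in 5-FU and 1837 and 1563 reads in PBS, as estimated from the FPKM steps.

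Dhx58 encodes LGP2, which lacks the signalling domains of the other RIG-I-like receptors and modulates them. Its gene is at chr11:100694884-100704271, minus strand. It was the lowest of the 8 genes in both groups, at 1.497 and 1.393 FPKM in 5-FU and at 1.82 and 1.89 FPKM in PBS, which correspond to 102 and 94 reads in 5-FU and to 246 and 257 reads in PBS. The 5-FU libraries lay below the PBS libraries, but the difference of -0.22 on the log2 scale (95% interval -0.55 to 0.11) did not pass (limma adjusted p = 0.192). The antisense gene Dhx58os shares 141 bp of exon with Dhx58 and measured 1.54 and 1.28 FPKM in 5-FU, against 0.637 and 0.693 FPKM in PBS. Without a stated strand setting, reads of this pair cannot be told apart there.

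Mavs encodes the mitochondrial adaptor that receives the signal of RIG-I and MDA5. It is encoded at chr2:131234063-131248025, plus strand. It measured 17.71 and 17.67 FPKM in 5-FU, against 25.4 and 22.7 FPKM in PBS. The 5-FU libraries were nearly equal and lay below both PBS libraries. Its means of 17.7 ± 0.0299 FPKM in 5-FU and 24.1 ± 1.91 FPKM in PBS (SD, n = 2 each) differed by -0.42 ± 0.117 on the log2 scale (SE, limma adjusted p = 0.0369). This call was lost with median-ratio scaling (log2 difference -0.30, adjusted p = 0.0673) and, at the same log2 difference, when low genes were not filtered out (adjusted p = 0.0533).

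The calls of Ddx58, Ifih1 and Mavs rested on both 5-FU libraries. Without 5-FU replicate 1 the limma adjusted p was 0.103 for Ddx58, 0.1335 for Ifih1 and 0.302 for Mavs, and without 5-FU replicate 2 it was 0.0912, 0.105 and 0.306 in the same gene order. The error then comes from the wider PBS pair alone, and the lone 5-FU library is assumed to vary like it. All 3 passed without either PBS library, where the error comes from the narrower 5-FU pair. Relative to the median of all tested genes, the log2 differences were 1.07 for Ddx58, -0.86 for Ifih1 and -0.32 for Mavs.

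Ratios between genes of the same library do not change when a library is multiplied by 1 factor. The ratio of Ddx58 to Ifih1 was 21.5 and 17.6 in 5-FU replicates 1 and 2, against 4.26 and 3.89 in PBS replicates 1 and 2. Its mean was 4.80 times as high in 5-FU as in PBS, and the lowest 5-FU value stood well above the highest PBS value. Ddx58 exceeded Mavs by ratios of 2.374 and 2.245 in 5-FU, while in PBS it lay below Mavs at ratios of 0.912 and 0.787. The ratio of Ifih1 to Mavs was 0.110 and 0.128 in 5-FU and 0.214 and 0.202 in PBS, so the sensor was lower in 5-FU also relative to its adaptor. The 3 RIG-I-like receptor genes together summed to 45.5 and 43.3 FPKM in 5-FU and to 30.45 and 24.4 FPKM in PBS. Ddx58 made up 92.4% and 91.6% of that sum in 5-FU and 76.15% and 73.4% in PBS. These ratios were not tested, and an exact two-sided permutation test of 2 against 2 libraries could not go below 0.333.

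**Figure D2:**
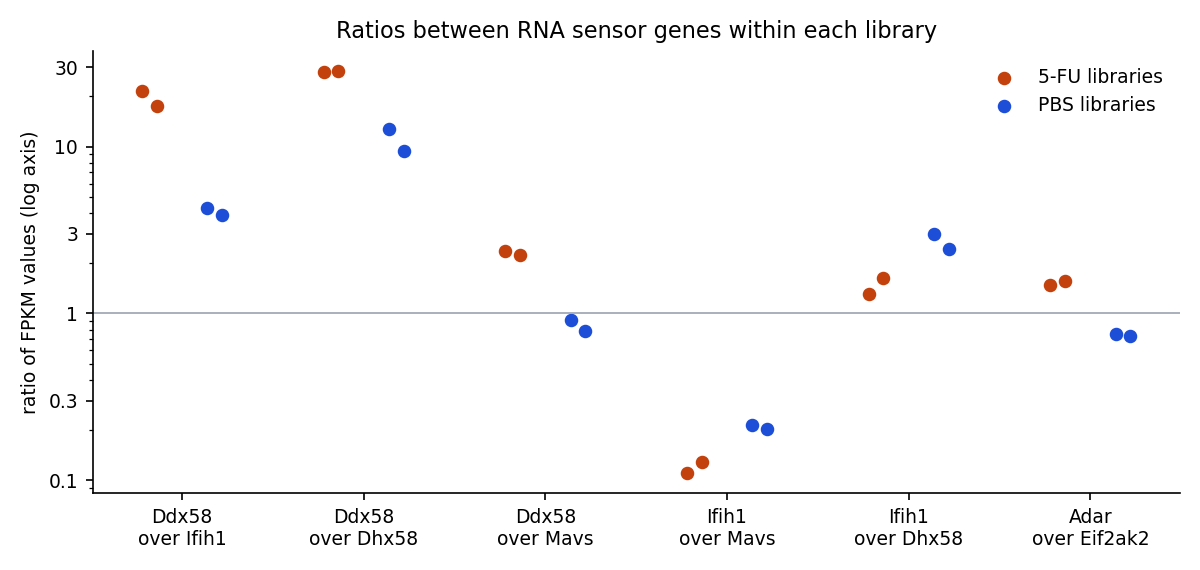
Ratios of FPKM values between 2 genes in the same library on a log axis, with 5-FU libraries at the left and PBS libraries at the right of each ratio. The 5-FU and PBS points are apart for all 6 ratios, and the ratio of Ddx58 to Mavs lies above 1 in 5-FU and below 1 in PBS. The ratios share genes, and the groups of each single gene did not overlap either, as in 81.0% of all tested genes.

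Tlr3 encodes the endosomal receptor for double-stranded RNA, which signals through the adaptor TRIF. Its gene is at chr8:45395665-45411080, minus strand. It measured 4.61 and 4.83 FPKM in 5-FU, against 4.33 and 3.30 FPKM in PBS. The 5-FU libraries lay just above the higher PBS library. The log2 difference of 0.26 (95% interval -0.17 to 0.69) did not pass (limma adjusted p = 0.2395), and it passed with quantile normalization (adjusted p = 0.0265, log2 difference 0.60) and without PBS replicate 1 (adjusted p = 0.007085, log2 difference 0.41), while it was 0.10 without PBS replicate 2 (adjusted p = 0.345). The antisense gene model Gm45542 shares 381 bp of exon with Tlr3 and was not analysed here.

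Eif2ak2 encodes PKR, the kinase that halts translation on binding double-stranded RNA. It is encoded at chr17:78852564-78882573, minus strand. It measured 10.4 and 9.87 FPKM in 5-FU, against 19.1 and 12.9 FPKM in PBS. Both 5-FU libraries were lower, but the PBS libraries differed from each other by a factor of 1.48. The difference was -0.59 on the log2 scale (95% interval -1.14 to -0.04) and did not pass after adjustment (limma adjusted p = 0.0702). It passed without PBS replicate 1 (adjusted p = 0.0101, log2 difference -0.32) and without PBS replicate 2 (adjusted p = 0.000207, log2 difference -0.85). Eif2ak2 shares 47 and 174 bp of exon with the genes n-R5s29 and Gm26637 on the opposite strand, both at most 1.016 FPKM.

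Adar encodes the editing enzyme that converts adenosine to inosine in double-stranded RNA. Its gene is at chr3:89715022-89753446, plus strand. It measured 15.5 and 15.4 FPKM in 5-FU, against 14.3 and 9.39 FPKM in PBS. Its 5-FU libraries were nearly equal and lay above both PBS libraries, which themselves differed by a factor of 1.52. The log2 difference was 0.38 (95% interval -0.18 to 0.95, limma adjusted p = 0.192), and it was 0.66 without PBS replicate 1 (adjusted p = 0.000328) and 0.10 without PBS replicate 2 (adjusted p = 0.215). A value per gene does not separate the interferon-inducible long form of ADAR1 from its constitutive short form. Adar also shares 1365 bp of exon with Chrnb2 on the opposite strand, which stayed below 1 FPKM. Relative to Eif2ak2, Adar stood at ratios of 1.485 and 1.56 in 5-FU, against 0.7475 and 0.727 in PBS, so that the order of this pair was opposite in the groups.

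Zbp1 encodes the sensor of left-handed RNA and DNA that engages RIPK3. It is encoded at chr2:173206612-173218923, minus strand. It measured 7.402 and 6.445 FPKM in 5-FU, against 3.65 and 5.12 FPKM in PBS. Both 5-FU libraries were higher, and the PBS spread was a factor of 1.40. The means of 6.92 ± 0.677 FPKM in 5-FU and 4.38 ± 1.04 FPKM in PBS (SD, n = 2 each) differed by 0.57 on the log2 scale (95% interval 0.07 to 1.07, limma adjusted p = 0.0592). It passed with median-ratio scaling (adjusted p = 0.0431), with quantile normalization (adjusted p = 0.0236, log2 difference 0.89), without PBS replicate 1 (adjusted p = 0.0179, log2 difference 0.37) and without PBS replicate 2 (adjusted p = 0.00109).

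**Figure D3:**
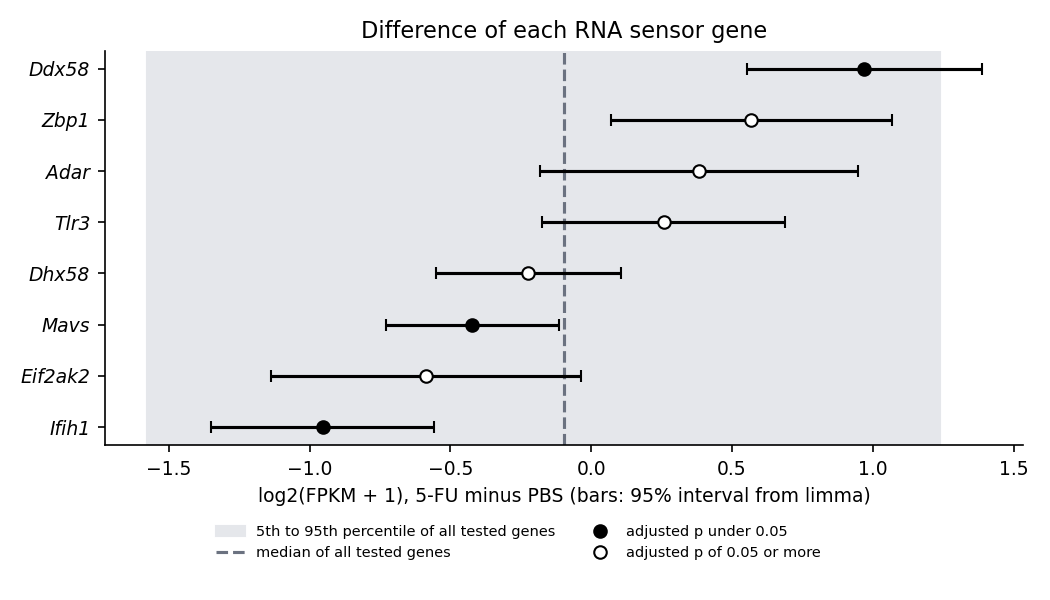
Log2 difference of each gene, 5-FU minus PBS on log2(FPKM + 1), with 95% intervals from limma; filled points passed the threshold, the grey band spans the 5th to 95th percentile of all tested genes and the dashed line is their median of -0.097. All 8 points lie inside the band, with Ddx58 at 0.97 and Ifih1 at -0.95 at the ends.

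The order of levels differed between the groups. In 5-FU it ran Ddx58, Mavs, Adar, Eif2ak2, Zbp1, Tlr3, Ifih1 and Dhx58 from high to low, and no neighbours in that order overlapped. In PBS it ran Mavs, Ddx58, Eif2ak2, Adar, Ifih1, Zbp1, Tlr3 and Dhx58. There the ranges of Mavs and Ddx58, Ddx58 and Eif2ak2, Eif2ak2 and Adar, Ifih1 and Zbp1, and Zbp1 and Tlr3 overlapped across libraries. Within each PBS library, Mavs exceeded Ddx58, Ddx58 exceeded Eif2ak2 and Eif2ak2 exceeded Adar. The order of Ifih1, Zbp1 and Tlr3 held in neither PBS library. Tlr3 (4.33 FPKM) exceeded Zbp1 (3.65 FPKM) in PBS replicate 1, and Zbp1 (5.12 FPKM) exceeded Ifih1 (4.60 FPKM) in PBS replicate 2. Over all 8 genes the FPKM values summed to 101.1 and 97.55 in 5-FU and to 97.3 and 77.8 in PBS, and Ddx58 supplied 41.6% and 40.7% of the sum in 5-FU against 23.8% and 23.0% in PBS.

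The genes also differ in size. Ddx58, Ifih1, Eif2ak2 and Adar span 36056, 50458, 30010 and 38425 bp of genome (GRCm38), and the other 4 span 9388 to 15416 bp. Among tested protein-coding genes, the median log2 difference was -0.26 for the 2049 that span 30 to 60 kb and 0.049 for the 6043 under 30 kb. With the trend on genomic span removed, Ddx58 was at 1.19, Ifih1 at -0.62 and Mavs at -0.46 on the log2 scale, and all 3 still passed (limma adjusted p = 0.00657, 0.0277 and 0.0321 in that order).

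Among 10365 tested protein-coding genes compared, the 3 closest to Ddx58 in their pattern over the 4 libraries were Bag6 (a chaperone gene), Atp5k (a subunit gene of ATP synthase) and Wdr53, at distances of 0.0268, 0.0291 and 0.0389 between centred log2(FPKM + 1) values. The 3 closest to Ifih1 were Ly75 (an endocytic receptor gene), Gk (glycerol kinase) and Fancg (a DNA repair gene), at distances of 0.0466, 0.05015 and 0.05021.

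Around the sensors, 11 lists held 106 genes, of which 89 were tested. Of these, 19 rose (21.35%, against 22.1% of all tested genes), 21 fell (23.6%, against 31.2%) and 49 did not pass. All 40 called genes kept their direction in all 16 alternative settings that tested them. Without 5-FU replicate 1 only Ppp1r15a and Irf2 still passed, and without 5-FU replicate 2 only these and Oas2, while all 40 passed without either PBS library. The lists below follow the signal from receptor to response, with the largest changes of each. Their counts are to be read beside the 22.1% that rose and 31.2% that fell of all tested genes. No list was tested as a set.

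In the list of MAVS and TRIF signalling, 1 of 15 tested genes rose, 4 fell and 10 did not pass, with a median log2 difference of -0.41 (-0.097 over all tested genes). Trim25, a ubiquitin ligase that activates RIG-I, measured 55.5 and 56.0 FPKM in 5-FU and 24.3 and 16.3 FPKM in PBS (log2 difference 1.44, limma adjusted p = 0.00671). Ticam1, which encodes the TLR3 adaptor TRIF, measured 1.075 and 1.167 FPKM in 5-FU and 3.96 and 5.09 FPKM in PBS (log2 difference -1.37, limma adjusted p = 0.00469). Thus Trim25 and Ticam1, which serve different receptors, lay on opposite sides of PBS. Tradd, an adaptor in the MAVS complex, fell to 4.32 ± 0.00653 FPKM in 5-FU, against 11.3 ± 1.37 FPKM in PBS (SD, n = 2 each, limma adjusted p = 0.00478). Tank, a scaffold of the kinase TBK1, fell by 0.53 on the log2 scale, a call lost in 7 of 16 alternative settings. The transcription factor genes Irf3 and Irf7 at the end of the pathway did not pass with all libraries. Irf3 measured 6.085 and 6.301 FPKM in 5-FU and 11.6 and 6.24 FPKM in PBS (limma adjusted p = 0.283), and Irf7 measured 4.049 and 3.185 FPKM in 5-FU and 2.21 and 2.51 FPKM in PBS (limma adjusted p = 0.0688). Irf7 passed in 4 of 15 alternative settings, median-ratio and quantile scaling and without either PBS library, and Irf3 passed in 1 of 16, without PBS replicate 2. Without either 5-FU library no gene of this list passed, and without PBS replicates 1 and 2 in turn 3 and 3 were higher and 8 and 10 were lower.

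Among 10 tested genes that restrain RIG-I-like receptor signalling, 2 rose, 3 fell and 5 did not pass, with a median log2 difference of -0.096. March5, a mitochondrial ubiquitin ligase that acts on MAVS, measured 69.9 and 73.8 FPKM in 5-FU and 41.2 and 38.1 FPKM in PBS (log2 difference 0.84, limma adjusted p = 0.00535). Mul1, another mitochondrial ubiquitin ligase, rose by 0.62 on the log2 scale. Tkfc, whose product binds MDA5 and holds it inactive, measured 3.43 and 4.26 FPKM in 5-FU and 13.24 and 11.15 FPKM in PBS (log2 difference -1.445, limma adjusted p = 0.0045). Itch, a ubiquitin ligase that marks MAVS for degradation, and the deubiquitinase gene Cyld fell by 0.67 and 0.54 on the log2 scale. The calls of Itch and Cyld were lost in 3 and 7 of 16 alternative settings, in both cases also with the span trend removed, and that of Mul1 in 3 of 15. Without either 5-FU library no gene of this list passed, and without PBS replicates 1 and 2 in turn 4 and 2 were higher and 4 and 4 lower.

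**Figure D4:**
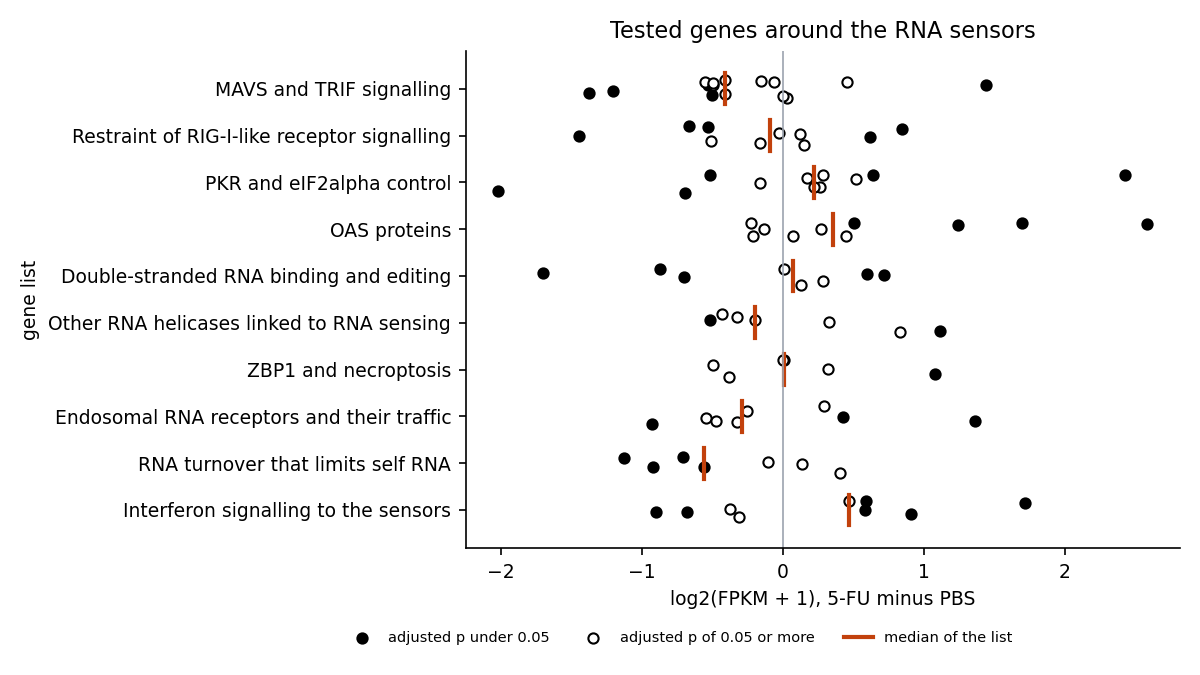
Log2 difference (5-FU minus PBS) of every tested gene in 10 lists around the sensors; filled points passed the threshold and the orange bar is the median of the list. Medians lie between -0.56 (RNA turnover) and 0.47 (interferon signalling), and most lists have filled points on both sides of 0.

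Of 11 genes around PKR and eIF2alpha, 2 rose, 3 fell and 6 did not pass, with a median log2 difference of 0.22. Ppp1r15a, the GADD34 subunit that directs dephosphorylation of eIF2alpha, measured 106.7 and 105.1 FPKM in 5-FU and 15.5 and 23.1 FPKM in PBS (log2 difference 2.425, limma adjusted p = 0.00302). Prkra, which encodes the PKR activator PACT, measured 3.930 and 3.635 FPKM in 5-FU and 15.2 and 22.3 FPKM in PBS (log2 difference -2.02, limma adjusted p = 0.00391). Eif2s1, which encodes eIF2alpha itself, rose by 0.64 on the log2 scale. G3bp2, a stress granule protein gene, and Eif2ak4, the amino acid-sensing eIF2alpha kinase gene, fell by 0.70 and 0.52 on the log2 scale, and these calls were lost in 3 and 5 of 16 alternative settings. Without 5-FU replicate 1 or 2 this list held 1 gene higher and 0 lower, without PBS replicate 1 it held 6 higher and 3 lower, and without PBS replicate 2 it held 4 higher and 4 lower.

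The OAS proteins are a further family of double-stranded RNA sensors. Of 10 tested genes in the list around them, 4 rose, 0 fell and 6 did not pass, with a median log2 difference of 0.36. The shares of all tested genes were 22.1% higher and 31.2% lower. Oas1b measured 40.4 and 38.1 FPKM in 5-FU and 8.42 and 3.78 FPKM in PBS, Oas2 measured 7.89 and 6.91 FPKM in 5-FU and 1.505 and 1.668 FPKM in PBS, and Oasl1 measured 126.9 and 115.4 FPKM in 5-FU and 52.3 and 49.1 FPKM in PBS. Their log2 differences were 2.58, 1.70 and 1.24 (limma adjusted p = 0.00566, 0.003 and 0.00327). Reads of the Oas1 genes may be shared among near-identical copies, so single values are uncertain. Oas1a also rose, and Oasl2, at 51.1 and 48.8 FPKM in 5-FU and 51.0 and 59.4 FPKM in PBS, did not pass. Without 5-FU replicates 1 and 2 in turn 0 and 1 genes of this list were higher, and without PBS replicates 1 and 2 in turn 6 and 5 were higher and 2 and 0 lower. No gene of this list fell at an unadjusted limma p under 0.05 either.

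Beyond Adar, 8 tested genes bind or process double-stranded RNA, of which 2 rose, 3 fell and 3 did not pass (median log2 difference 0.067). Ilf2, a double-stranded RNA-binding protein gene, rose by 0.72 on the log2 scale. Strbp, a spermatid RNA-binding protein gene, measured 1.34 and 1.37 FPKM in 5-FU and 5.46 and 8.14 FPKM in PBS (log2 difference -1.71, limma adjusted p = 0.00499). Adarb1, the gene of the second active editing enzyme ADAR2, fell to 0.864 ± 0.0949 FPKM in 5-FU, against 2.04 ± 0.251 FPKM in PBS (SD, n = 2 each, limma adjusted p = 0.0146), and did not pass in 4 of 15 alternative settings, among them no filter and removal of the span trend. Stau1, which binds double-stranded stretches of messenger RNA, rose by 0.60 on the log2 scale. Among 7 other helicases linked to RNA sensing, 1 rose, 1 fell and 5 did not pass (median -0.20): the nucleolar helicase gene Ddx21 rose by 1.11 and Dhx36, a helicase gene for G-quadruplexes, fell by 0.52 on the log2 scale, with calls lost in 4 and 3 of 16 alternative settings. Of 7 tested genes whose products degrade or limit self RNA, 0 rose, 4 fell and 3 did not pass (median -0.56). Shares of all tested genes were 22.1% higher and 31.2% lower. Pnpt1, the mitochondrial RNA-degrading enzyme gene, measured 16.85 and 18.62 FPKM in 5-FU and 40.07 and 39.75 FPKM in PBS (log2 difference -1.13, limma adjusted p = 0.00368). Skiv2l and Ttc37, both of the cytosolic Ski complex, fell by 0.92 and 0.71 on the log2 scale, and the call of Ttc37 was lost in 5 of 16 alternative settings. Without either 5-FU library no gene of these 3 lists passed, and without PBS replicate 1 the higher and lower counts were 4 and 3 for binding and editing, 3 and 2 for helicases and 2 and 4 for RNA turnover. Without PBS replicate 2 the helicase counts were 2 and 4. No gene of the turnover list rose at an unadjusted limma p under 0.05 with all libraries.

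Downstream of Zbp1, 1 of 6 genes rose and 5 did not pass (median log2 difference 0.0033). Casp8, whose product restrains necroptosis, measured 40.6 and 43.2 FPKM in 5-FU and 21.9 and 17.1 FPKM in PBS (log2 difference 1.08, limma adjusted p = 0.00661). Ripk3, the necroptosis kinase gene, measured 2.96 and 2.74 FPKM in 5-FU and 2.59 and 1.65 FPKM in PBS (limma adjusted p = 0.218), and passed in 2 of 15 alternative settings, quantile scaling and without PBS replicate 1. Mlkl, the gene of its membrane-rupturing substrate, measured 54.5 and 53.2 FPKM in 5-FU and 60.1 and 47.7 FPKM in PBS, with a log2 difference of 0.0086 (95% interval -0.38 to 0.39). Beside Tlr3, the other endosomal RNA receptors were near 0, with Tlr7 at most 0.0822 FPKM and Tlr8 at most 0.0125 FPKM in any library. Of 8 tested genes of this list, 2 rose, 1 fell and 5 did not pass (median -0.29). Myd88, the adaptor that those receptors use, measured 34.45 and 34.42 FPKM in 5-FU and 14.8 and 11.0 FPKM in PBS (log2 difference 1.36, limma adjusted p = 0.00511). Hsp90b1, the chaperone gene needed for folding of these receptors, fell by 0.93 on the log2 scale. Rnaset2b, a lysosomal ribonuclease gene with the near-identical copy Rnaset2a, rose by 0.42, a call lost in 5 of 15 alternative settings. Rnaset2a, the more abundant copy, did not pass (log2 difference 0.29, limma adjusted p = 0.138), and reads may be shared between the copies. Without either 5-FU library no gene of these lists passed, and without PBS replicates 1 and 2 in turn the Zbp1 list held 4 and 1 higher and 2 and 2 lower, and the endosomal list 2 and 3 higher and 4 and 4 lower. In the Zbp1 list, Ripk1 was the 1 gene lower at an unadjusted limma p under 0.05 (log2 difference -0.50, adjusted p = 0.0781).

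None of 9 interferon genes was high enough to test. Together they summed to 0.333 and 0.378 FPKM in 5-FU and to 0.0416 FPKM and 0 in PBS. Ifnb1 was listed at 0 in both PBS libraries, where 3 reads would give 0.0968 and 0.0961 FPKM, and it measured 0.0624 and 0.378 FPKM in 5-FU, of which the first lies under its own 3-read limit of 0.192 FPKM. Such limits cover counting error only. Of the 9 genes that carry the interferon signal to the sensors, 4 rose, 2 fell and 3 did not pass (median log2 difference 0.47). Irf2, which binds the ISRE and mostly represses, measured 45.8 and 45.1 FPKM in 5-FU and 12.7 and 13.6 FPKM in PBS (log2 difference 1.715, limma adjusted p = 0.0027). Irf1, an activator of interferon-induced genes, rose by 0.59 on the log2 scale, whereas the receptor kinase genes Tyk2 and Jak1 fell by 0.90 and 0.68. Without 5-FU replicate 1 or 2 this list held 1 gene higher and 0 lower, and without PBS replicates 1 and 2 in turn 5 and 5 higher and 4 and 3 lower. The call of Jak1 was lost in 5 of 16 alternative settings, among them median-ratio scaling, no filter and removal of the span trend, and its log2 difference lay between -0.91 and -0.15 over all 16.

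**Figure D5:**
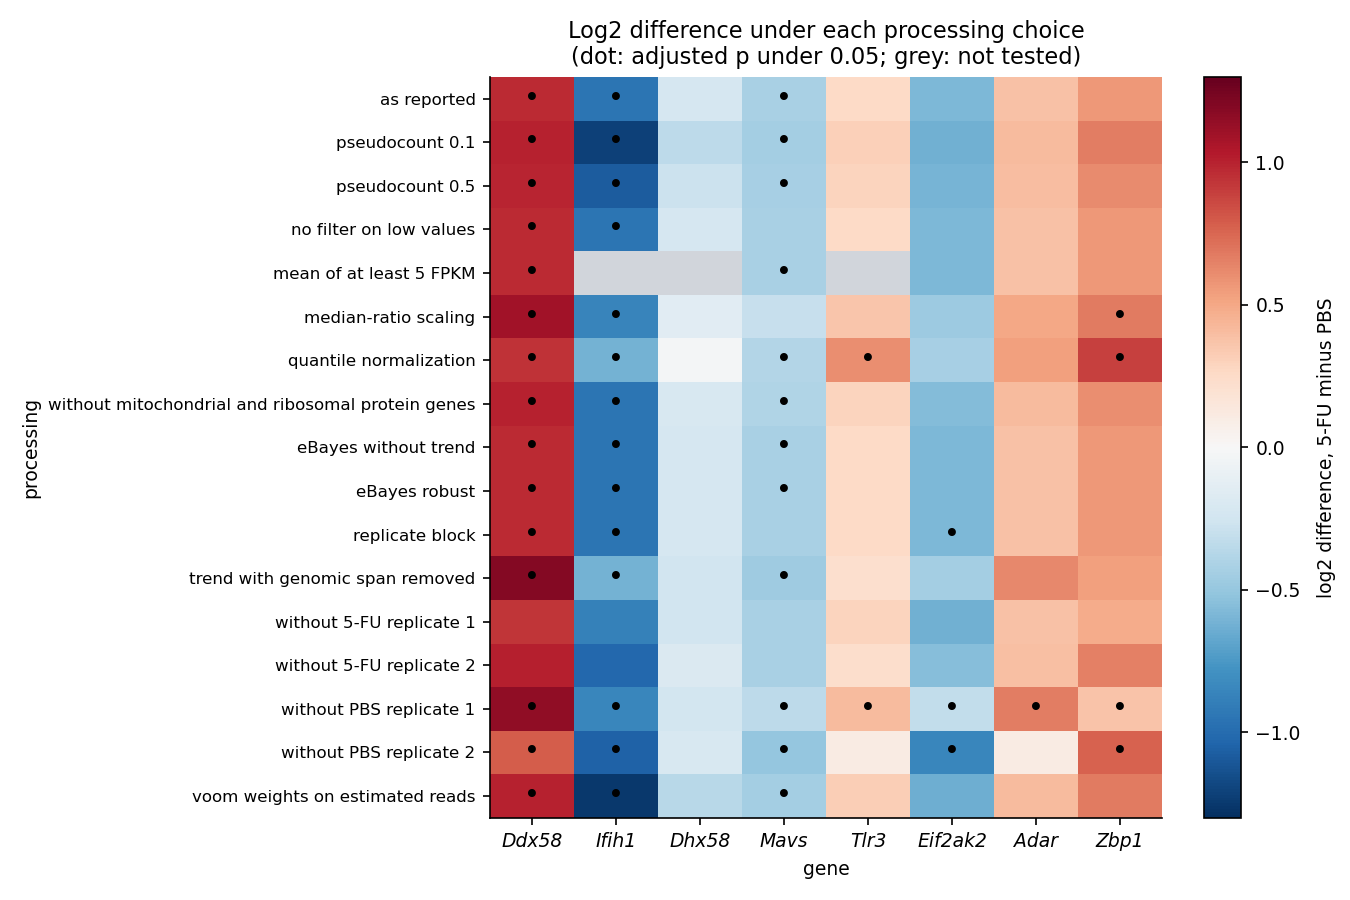
Log2 difference (5-FU minus PBS) of each sensor gene under the processing as reported and 16 alternatives; red is higher and blue lower in 5-FU, dots mark adjusted p under 0.05 and grey cells were not tested. No cell changes colour within a column, and Ddx58 and Ifih1 carry dots in all tested settings except those without a 5-FU library.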

How the data were processed

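RNA of 4 libraries, 2 with 5-FU and 2 with PBS, was made into polyA-based libraries, per the labels' protocols. The authors deposited 1 table for 36445 genes, whose values are FPKM by its name. STAR 2.4.1a, Picard 2.9.0 and GRCm38 are named in the submitters' processing notes without a role. The sources used here do not name the program that counted the reads, or its strand setting. Reads shared by overlapping or near-identical genes may thus be assigned either way.

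Gene IDs were matched to GENCODE M21 (36379 of 36445), which gave positions and exonic lengths. Depth was taken from the commonest low value of FPKM times length, read as 1 read. Among values under 100 reads, 63.1% to 65.1% per library then lay within 0.02 of a whole read. For 5 of the 8 genes all 4 values did (Ifih1, Dhx58, Mavs, Eif2ak2 and Zbp1), and reads of the others are estimates.

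limma 3.58.1 in R 4.3.3 (lmFit, eBayes with trend) was fitted to log2(FPKM + 1), a scale that understates changes of low genes. Alternatives were pseudocounts of 0.1 and 0.5, no filter or a mean of 5 FPKM, median-ratio and quantile scaling, omission of mitochondrial and ribosomal protein genes, eBayes robust or without trend, a block on replicate number, removal of a span trend, leaving out each library, and voom weights on estimated reads, chosen after seeing the data. The fit was also run on simulated data with known changes. Each gene had the same spread in both groups there, so that run cannot check the fit under the unequal spread seen here.

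The labels do not say that replicates were separate cultures, so p-values measure only the spread between these samples. Members and lists were chosen with earlier results of these data known. From each list the text names up to 3 called genes in each direction (largest log2 difference), or, with none called, 2 by smallest p, and in addition Ifnb1, Irf3, Irf7, Ripk3 and Mlkl. Some genes that this rule selects are not reported here. It also names the 3 nearest patterns to the largest rise and fall. Oas1a, Oasl2, Ripk1, Rnaset2a, Tlr7, Tlr8, Epcam, Cdh1, Krt8, Ptprc, Cd3e, Ncr1, Cd68, Lyz2, Pdgfra and genes overlapping a sensor gene were named after their values were seen. The same holds for Col1a1, Col3a1, Vil1 and Krt20.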

Additional observations from a re-analysis of the deposited data

How the results depend on the processing

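No sensor gene changed direction in any of 16 alternatives. The count higher, 1 as reported, was 2 with median-ratio scaling (Ddx58 and Zbp1) and 3 with quantile normalization (also Tlr3). The count lower, 2 as reported, was 1 with no filter on low values, with a mean of at least 5 FPKM (where Ifih1 was not tested) and with median-ratio scaling. Leaving out 1 library gave 0 to 4 higher and 0 to 3 lower. Over all tested genes, 2578 were higher and 3628 lower as reported. Omitting 5-FU replicate 1 gave 259 and 237, omitting 5-FU replicate 2 gave 293 and 299, omitting PBS replicate 1 gave 4385 and 4975, and omitting PBS replicate 2 gave 3822 and 5249. With a mean of at least 5 FPKM they were 1777 and 2158. Median-ratio scaling moved the median log2 difference of all genes to 0.013 and the counts to 3193 and 3218, quantile normalization to 0.021 with 2946 and 2825, and removal of the span trend to 0.037 with 2894 and 2733. Same-numbered libraries did not deviate together (r = -0.0101 over 11644 genes). With the replicate block the counts stayed at 1 higher and 2 lower, but Eif2ak2 passed (adjusted p = 0.0426) and Mavs did not (adjusted p = 0.0726), and 2484 and 3553 of all genes were higher and lower. Of 300 recomputed list counts, 222 stayed within 1.5 times the reported count and 78 did not. Causes were not tested. Depth limits the lowest sensor gene, Dhx58, which rests on 94 reads in 1 library.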
